A study of Drosophila melanogaster with 8 samples.

Results

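Proc, Pdf, Capa and Lk are 4 peptide genes of nerve cord neurons whose axons leave the central nervous system, and Proc-R, Pdfr, CapaR and Lkr encode their receptors. The 8 genes were chosen by name as peptide and receptor pairs, with earlier results of these data known. All 8 were found among the 14175 gene identifiers of the count files (7 by current symbol, and Proc-R through its older symbol ProcR). They were followed in the ventral nerve cord of Drosophila melanogaster, dissected from female larvae at the wandering stage of the third instar in a w1118 background. Mutants (w;;witA12,st1/witB11,st1, 4 libraries) were compared with controls (w;;witA12,st1/+, 4 libraries), so that the controls also carried 1 mutant wit allele and 1 st1 chromosome. Each library was made from 25 pooled nerve cords with the brain lobes removed, and larvae grew at 25 °C. The product of wit (wishful thinking) is a type II BMP receptor, and the labels do not give the lesions of witA12 and witB11.

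BMP signalling in fly motor and neurosecretory neurons is known to run backwards from the axon terminal, where the ligand Gbb from the target tissue binds Wit, to the nucleus, where phosphorylated Mad changes transcription. Proctolin, the peptide encoded by Proc, is made by some motor neurons and strengthens muscle contraction. Pigment-dispersing factor (PDF), encoded by Pdf, is best known as a signal of brain clock neurons, and in the nerve cord it is made by posterior abdominal neurons that innervate the hindgut. Capa encodes peptides that abdominal neurosecretory cells release into the blood to act on the Malpighian tubules, the insect kidneys. Lk encodes leucokinin, which abdominal neurons with axons on the body wall release and which drives fluid secretion by the tubules. All 4 receptors are G protein-coupled: the PDF receptor acts mainly through cyclic AMP, and the leucokinin and Capa receptors through calcium.

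Libraries held 20923718 to 32740492 estimated counts, and mutant replicate 1 was the shallowest. Of 9176 genes tested with edgeR's quasi-likelihood test, 14.8% were called at an adjusted p under 0.05, with 8.66% lower and 6.12% higher in wit mutants. All 8 peptide and receptor genes passed the filter on low counts. Of these 8, 3 fell (Proc, Pdf and Capa), 0 rose and 5 did not pass the test. By role, 3 of the 4 peptide genes and 0 of the 4 receptor genes were called (0 receptors at an unadjusted p under 0.05, 0 by DESeq2 and 1, Lkr, by limma-voom). All 4 mutant values lay below all 4 control values for 3 of the 8 genes and for 11.7% of all tested genes. Because of how the 8 genes were chosen, setting their counts beside the shares of all genes is not a test. Values are given as CPM, counts scaled to a common library size, with log2 fold changes for mutants relative to controls. In a principal component analysis the first component (48.2% of the variance) separated all mutant from all control libraries, and mutant replicate 1 lay apart from the other mutants on the second (14.3%).

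**Figure D1:**
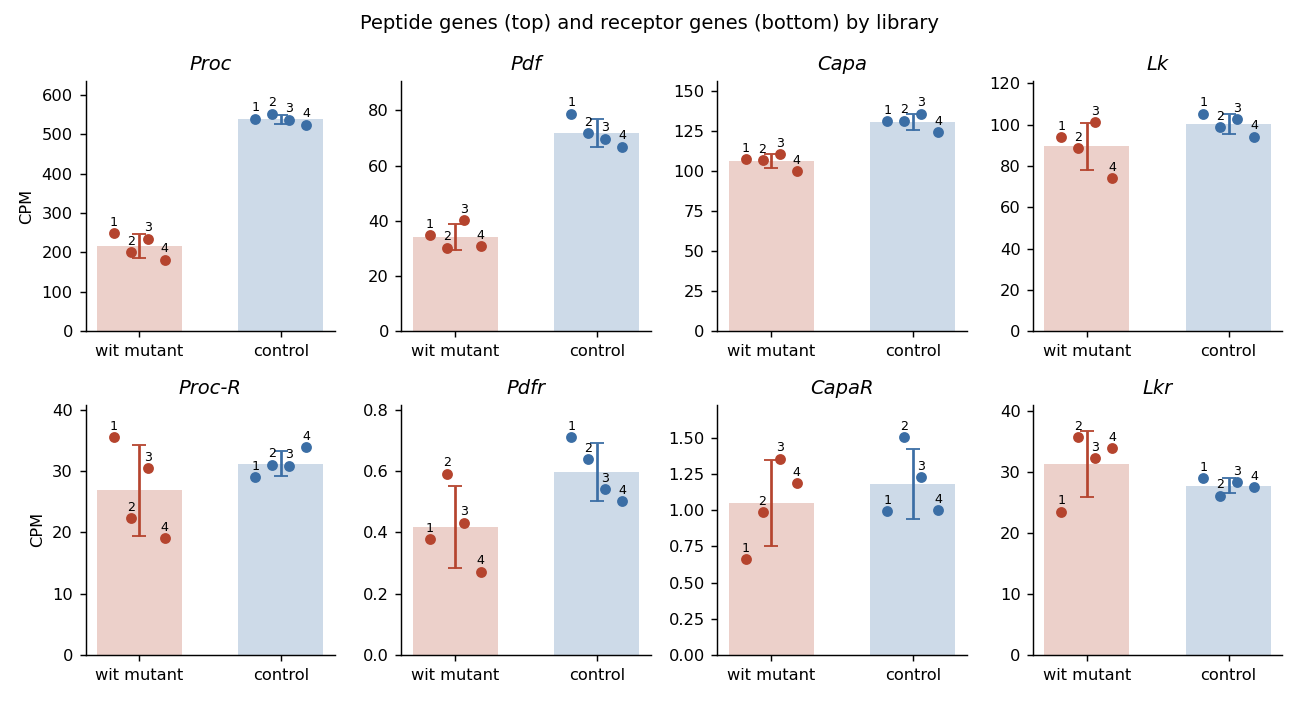
Abundance in CPM (counts scaled to library size) of the 4 peptide genes (top row) and their 4 receptor genes (bottom row), with wit mutants on the left and controls on the right of each panel. Points are libraries with their replicate number, and bars and error bars are the mean and SD of 4 libraries. All mutant libraries lie below all control libraries for Proc, Pdf and Capa, and the genotypes overlap for the other 5 genes.

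Proctolin transcript showed the largest difference of the 8 genes. Proc (FBgn0045038, build BDGP6, chromosome 2L, 7864642 to 7871432) was at 249.9, 200.4, 235 and 182 CPM in mutant replicates 1 to 4, against 539.5, 552, 537 and 524 CPM in control replicates 1 to 4. All 4 mutant libraries were far below all 4 control libraries, and the mutants spread more widely (SD 31.2 CPM) than the controls (SD 11.5 CPM). Proc fell to 40.2% of the control level in wit mutants (log2 fold change -1.31, SE 0.09, edgeR adjusted p = 1.78e-05). Of all tested genes, 0.883% had a lower log2 fold change. Since whole nerve cords were measured, fewer cells expressing a gene and less RNA in each cell cannot be told apart, here and for every gene below.

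Pdf transcript was next in size. Pdf (FBgn0023178, chromosome 3R, 26455462 to 26456141) was at 34.8, 30.3, 40.4 and 30.9 CPM in mutant replicates 1 to 4, against 78.8, 71.9, 69.8 and 66.9 CPM in control replicates 1 to 4. The genotypes did not overlap, and control replicate 1 was the highest library. Pdf fell to 47.6% of the control level in wit mutants (log2 fold change -1.07, SE 0.09, edgeR adjusted p = 5.98e-05). Because brain clock neurons also express Pdf, remains of brain lobes would add to its level. Of 8 marker genes of the optic lobe and brain, 6 were tested and 2 fell, so and bi. The call of so was lost without any 1 of control replicates 1 to 3 or mutant replicates 2 and 3. The edgeR adjusted p of so was then 0.0578 to 0.0686. The call of bi (log2 fold change -0.28, edgeR adjusted p = 0.00134) held in all 14 alternatives. The summed abundance of this list was 68.0 to 74.7 CPM in mutant libraries and 79.3 to 82.6 CPM in control libraries. The photoreceptor genes gl and Rh6 were near 0. Rh5, another photoreceptor gene, was at 0.5716 CPM in mutants and 0.5005 CPM in controls and was not called. Of 6 clock neuron markers 5 were tested and 0 called by edgeR or DESeq2 (2 at an unadjusted p under 0.05 in edgeR), and Clk was near 0, while cry and tim had log2 fold changes of -0.66 and -0.65 (edgeR adjusted p = 0.0988 and 0.0674) and were called lower by limma-voom. The summed clock markers, most of which was vri, were at 551 to 662 CPM in mutant libraries and 529 to 590.1 CPM in control libraries. The part of these markers in the Pdf result was not tested.

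Capa transcript showed a small difference with little spread. Capa (FBgn0039722, chromosome 3R, 29912991 to 29914346) was at 107.4, 106.6, 111 and 99.9 CPM in mutant replicates 1 to 4, against 131, 131.5, 136 and 124 CPM in control replicates 1 to 4. The genotypes did not overlap. Capa fell to 81.3% of the control level in wit mutants (log2 fold change -0.30, SE 0.04, 95% interval -0.39 to -0.21, edgeR adjusted p = 0.000518). General neuronal genes were lower as well: 5 of 6 neuron markers fell, with log2 fold changes from -0.34 (Syx1A, a syntaxin gene) to -0.11 (elav, an RNA-binding protein gene, not called) and a median of -0.19. The count called was 2 without control replicate 3, and 3 when replicate 2 or 4 of either genotype was left out. Their summed abundance was 5129 to 5656 CPM in mutant libraries and 5995 to 6302 CPM in control libraries. The interval of Capa overlapped the range of these markers, those of Proc and Pdf lay wholly below it, and the part of the neuronal markers in these results was not tested.

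Lk, the leucokinin gene, did not pass the test. Lk (FBgn0028418, chromosome 3L, 14560139 to 14560764) was at 94.1, 88.6, 101 and 74.1 CPM in mutant replicates 1 to 4, against 105, 98.9, 103 and 94.2 CPM in control replicates 1 to 4. Mutant replicate 3 lay among the controls and mutant replicate 4 lay well below the rest. The log2 fold change was -0.16 (SE 0.09, 95% interval -0.36 to 0.03, edgeR adjusted p = 0.234), so the interval held both no difference and a fall close to that of Capa. Lk lies within the gene CG34039 and overlaps the antisense gene asRNA:CR44843, both on the opposite strand. The library kit was stranded, but the sources used here do not say whether counting used strand, and asRNA:CR44843 was not analysed here. CG34039 itself was at 15.8 ± 1.71 CPM in mutants and 14.5 ± 0.368 CPM in controls (SD, n = 4 each) and was not called (edgeR adjusted p = 0.330).

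**Figure D2:**
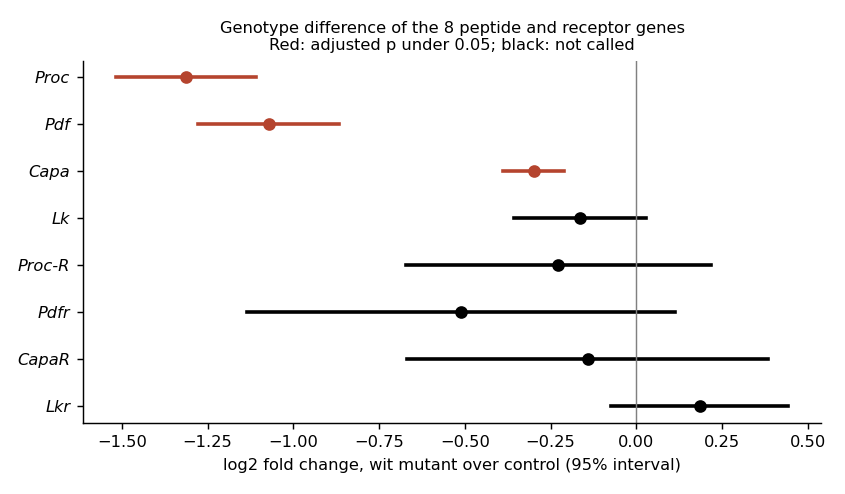
Log2 fold changes, wit mutant over control, of the 8 genes with 95% intervals from edgeR's quasi-likelihood fit; red genes were called at an adjusted p under 0.05. Proc and Pdf lie near -1.31 and -1.07, Capa at -0.30 with a narrow interval, and all 4 receptor intervals and that of Lk include 0.

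The 4 peptide genes differed among themselves in the size of their change, which was tested on the log2 ratio of their counts within each library, a measure that needs no scaling between libraries. The ratio of Proc to Capa was 1.02 ± 0.16 in mutants and 2.04 ± 0.04 in controls (log2, SD, n = 4 each), a difference of -1.02 with no overlap. Proc to Lk differed by -1.15, Pdf to Capa by -0.78 and Pdf to Lk by -0.91, again with no overlap between genotypes. Each of these 4 ratios had a two-sided exact permutation p of 0.0286, the smallest that 8 libraries allow, and an adjusted p of 0.0429 over the 6 pairs. The test was added after the values were seen, and the 6 pairs are not independent, being built from the same 4 genes. Proc to Pdf (-0.24, exact permutation adjusted p = 0.0686) and Capa to Lk (-0.13, exact permutation adjusted p = 0.143) did not pass. The change of Proc and of Pdf was thus larger than that of Capa and of Lk, while the difference between Proc and Pdf and that between Capa and Lk did not pass.

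The make-up of the summed peptide transcripts shifted accordingly. The 4 genes together were at 486, 426, 487 and 387 CPM in mutant replicates 1 to 4, against 855, 855, 846 and 809.6 CPM in control replicates 1 to 4. Proc held 48.4% ± 2.07 of this sum in mutants and 64.0% ± 0.811 in controls, while Lk held 20.0% ± 0.886 in mutants and 11.9% ± 0.369 in controls (SD, n = 4 each). Per kilobase of the longest annotated transcript, the mean levels in mutants were 153 CPM for Capa, 143 for Lk, 109.6 for Proc and 50.1 for Pdf, against 188 for Capa, 160.2 for Lk, 272 for Proc and 106 for Pdf in controls. Proc was thus the most abundant of the 4 per length in controls, and in mutants Capa and Lk were above it. Even in mutants Pdf, the lowest of the 4, was above 84.5% of tested genes on this scale.

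Per kilobase of transcript the receptor genes were less abundant than the peptide genes, and none was called by edgeR with all 8 libraries. On that scale Lkr was at 10.7 CPM in mutants and 9.47 CPM in controls, and Proc-R at 7.65 CPM in mutants and 8.90 CPM in controls. CapaR was at 0.574 CPM per kilobase in mutants and 0.647 in controls, and Pdfr at 0.126 in mutants and 0.180 in controls, below which lay 0.812% of tested genes in mutants and 1.12% in controls. Targets of Capa peptides and leucokinin include the tubules, which lie outside the nervous system. Of 5 gut and tubule markers, byn was at 0 in all 8 libraries, and Uro and Oatp58Db were at 0 in all mutant libraries and near 0 in controls. Irk2 was at 11.3 CPM in mutants and 12.9 CPM in controls, and Alp4, which fell (edgeR adjusted p = 0.00475), was at 5.94 CPM in mutants and 8.75 CPM in controls. The summed list was at 16.5 to 17.8 CPM in mutant libraries and 19.9 to 24.0 CPM in control libraries, and its part in the receptor values was not tested.

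Proc-R (FBgn0029723, chromosome X, 4707916 to 4729487), the proctolin receptor gene, was at 35.5, 22.4, 30.4 and 19.1 CPM in mutant replicates 1 to 4, against 29.0, 31.1, 30.9 and 34.0 CPM in control replicates 1 to 4. The mutants ranged from well below to above every control, so the genotypes overlapped. The log2 fold change was -0.23 (SE 0.19, 95% interval -0.67 to 0.22, edgeR adjusted p = 0.471). The interval included changes of either sign.

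Lkr (FBgn0035610, chromosome 3L, 5512421 to 5529341), the leucokinin receptor gene, was the only one of the 8 with a positive log2 fold change. It was at 23.6, 35.7, 32.4 and 34.0 CPM in mutant replicates 1 to 4, against 29.0, 26.2, 28.4 and 27.5 CPM in control replicates 1 to 4. Mutant replicates 2, 3 and 4 lay above all controls and mutant replicate 1 below all of them. With all libraries the log2 fold change was 0.18 (SE 0.11, 95% interval -0.07 to 0.44) and was not called (edgeR adjusted p = 0.316). Without mutant replicate 1 it was 0.29 and was called (edgeR adjusted p = 0.000908). With all 8 libraries limma-voom with sample quality weights also called it (0.24, adjusted p = 0.0456), so the call depended on that library and on the test.

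Pdfr and CapaR were read at few counts. Pdfr (FBgn0260753, chromosome X, 2552206 to 2578640), the PDF receptor gene, had 8, 15, 14 and 8 counts in mutant replicates 1 to 4, against 20, 17, 15 and 16 counts in control replicates 1 to 4. The sums were 45 counts in mutants (exact Poisson 95% interval 32.8 to 60.2) and 68 counts in controls (52.8 to 86.2), where the intervals cover counting error only. After scaling, its log2 fold change was -0.51 (SE 0.28, 95% interval -1.14 to 0.11, edgeR adjusted p = 0.255). CapaR (FBgn0037100, chromosome 3L, 21558974 to 21562181), the Capa receptor gene, had 14, 25, 44 and 35 counts in mutant replicates 1 to 4, against 28, 40, 34 and 32 counts in control replicates 1 to 4, with a log2 fold change of -0.14 (SE 0.24, 95% interval -0.67 to 0.39, edgeR adjusted p = 0.733). At these counts both intervals included 0 and also a fall as large as that of Capa.

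**Figure D3:**
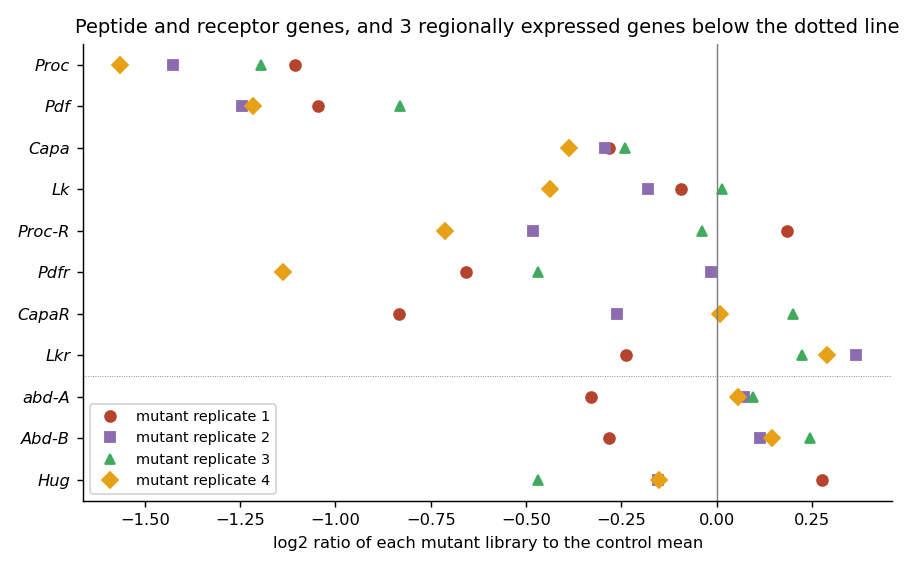
Log2 ratio of each mutant library to the mean of the 4 control libraries (horizontal axis) for the 8 genes and, below the dotted line, abd-A, Abd-B and Hug. Mutant replicates 1 and 3 are higher than 2 and 4 for Proc, Pdf, Capa, Lk and Proc-R, and mutant replicate 1 stands apart for Lkr, abd-A, Abd-B and Hug.

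The 4 mutant libraries differed among themselves in a pattern shared by several of the 8 genes. Mutant replicates 1 and 3 had higher values than replicates 2 and 4 for Proc, Pdf, Capa, Lk and Proc-R. For Capa, mutant replicates 1 and 2 were nearly equal, at 107.4 and 106.6 CPM, and Lkr, Pdfr and CapaR did not follow this order. The order was not particular to these genes. The neuron markers nSyb, Syt1 and brp and the glial markers repo, Gs2, alrm, wrapper and Eaat1 had it too. The neuron markers elav, Appl and Syx1A and the glial marker moody did not. Mutant replicate 1 had the lowest mutant value of Lkr and CapaR. The same library also stood apart for genes of regional expression, which were looked up after its values were seen. The Hox gene abd-A, expressed in abdominal segments, was at 265 CPM in mutant replicate 1 and 346 to 356 CPM in the other mutants, against 317 to 353 CPM in controls. Abd-B, the Hox gene of the most posterior segments, was at 60.0 CPM in mutant replicate 1 and 79.0 to 86.5 CPM in the other mutants, against 66.9 to 79.4 CPM in controls. Hug, a peptide gene of subesophageal neurons, was at 127 CPM in mutant replicate 1 and 76.0 to 94.6 CPM in the other mutants, against 98.1 to 108 CPM in controls. Mutant replicate 1 also stood apart from the other mutants for genes not chosen by region. The glial marker Gs2 was at 418 CPM there and 183.5 to 291.5 CPM in the other mutants, against 557 to 574 CPM in controls. The peptide maturation gene amon was at 304 CPM there and 340.5 to 344 CPM in the other mutants, against 299.6 to 328 CPM in controls. The part of these differences in the values of Lkr and the other genes was not tested. Without mutant replicate 1 the log2 fold changes were -1.39 for Proc, -1.08 for Pdf and -0.30 for Capa, all called.

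The genotypes differ in 1 whole copy of chromosome 3, so for all 8 genes the loss of wit and other variants on that chromosome cannot be told apart. Pdf, Capa, Lk, CapaR and Lkr lie on chromosome 3 themselves, and Proc, Proc-R and Pdfr on chromosomes 2L and X. The transcript of wit itself was at 86.8 ± 3.97 CPM in mutants and 90.6 ± 3.43 CPM in controls (SD, n = 4 each, edgeR adjusted p = 0.371), which does not check the genotype.

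Other peptide genes of efferent neurons were lower as well. Of 6 such genes listed with earlier results in view, 6 fell and 0 rose, against 8.66% of all tested genes lower and 6.12% higher. Their median log2 fold change was -1.47, against 0.01 for all genes tested. Because of how the genes were chosen, neither comparison is a test. FMRFa, made by neurosecretory Tv neurons, had -2.40, Pburs, a bursicon subunit gene, had -2.95, the insulin-like gene Ilp7 had -1.75, CCAP, encoding crustacean cardioactive peptide, had -1.20, and Mip, encoding myoinhibitory peptides, had -0.61 (edgeR adjusted p from 6.81e-09 to 0.0101). Burs, the other bursicon subunit gene, had -0.36, and its call was lost without any 1 control library, mutant replicate 2 or mutant replicate 4 (edgeR adjusted p from 0.0899 to 0.118).

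Hormone genes related to Capa and Lk by action or structure gave no call in the main test, where 14.8% of all tested genes were called. The list of 10 held genes for the diuretic hormones Dh31 and Dh44, the ion transport peptide ITP, the pyrokinin peptide Hug, and receptors of diuretic hormones and of pyrokinins. Of these 10, 0 passed edgeR's test or DESeq2's and 0 had an unadjusted p under 0.05 in edgeR. With limma-voom, and with edgeR without mutant replicate 1, 1 gene, PK2-R1, was called higher. Their log2 fold changes ran from -0.12 to 0.19 with a median of -0.02. Dh44, which larval abdominal leucokinin neurons are known to co-express, was at 37.0 ± 2.53 CPM in mutants and 39.2 ± 1.96 CPM in controls (SD, n = 4 each, edgeR adjusted p = 0.337). It is named outside the rule for named genes.

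Of 21 genes that act below such receptors, 6 fell and 0 rose, against 8.66% of all tested genes lower and 6.12% higher, with a median log2 fold change of -0.06. The count that fell was 4 without control replicate 2, 3 or 4, without mutant replicate 3 or 4 and with the replicate block, and without mutant replicate 1 it was 6, with 3 that rose. The fly arrestin gene krz, whose product turns off activated receptors, was at 91.7, 92.4, 93.4 and 88.2 CPM in mutant replicates 1 to 4, against 122, 125, 123.5 and 123 CPM in control replicates 1 to 4 (log2 fold change -0.43, SE 0.03, edgeR adjusted p = 5.11e-06). The genotypes did not overlap, and the spread within each was small. The receptor kinase gene Gprk2 (-0.19), the protein kinase A catalytic gene Pka-C1 (-0.20), the G protein gene Galphao (-0.20) and the protein kinase A regulatory gene Pka-R2 (-0.14) also fell (edgeR adjusted p from 0.00300 to 0.0279). The values of these last 4 genes were within the range of the neuron markers given above. The call of Pka-R2 was lost when any 1 of replicates 2, 3 and 4 of either genotype was left out (edgeR adjusted p from 0.0508 to 0.0962).

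Genes for making peptides and for the identity of peptidergic neurons were called at 0 of 6 and 1 of 11 tested. In lists this short, these counts are near the 14.8% called among all tested genes. Of 6 tested genes for peptide maturation and release, among them the prohormone convertase gene amon, the carboxypeptidase gene svr and the amidation gene Pal2, 0 passed edgeR's test and 1, IA-2, had an unadjusted p under 0.05. DESeq2 called IA-2 lower, and limma-voom called IA-2 lower and amon higher, as edgeR did without mutant replicate 1. Their log2 fold changes ran from -0.20 to 0.09. Of 11 tested transcription factor genes of peptidergic neurons, 0 fell and 1 rose, with 3 at an unadjusted p under 0.05, and without mutant replicate 1 Abd-B was called higher as well. The gene that rose, Chi, a cofactor gene of LIM homeodomain proteins, had 0.13 (edgeR adjusted p = 0.0263). That call was lost when control replicate 3, control replicate 4 or mutant replicate 3 was left out (edgeR adjusted p from 0.0517 to 0.0900). The peptidergic factor gene dimm, named outside the rule, was at 3.11 ± 0.380 CPM in mutants and 4.10 ± 0.568 CPM in controls (SD, n = 4 each), with a log2 fold change of -0.40 (edgeR adjusted p = 0.0754). The genotypes did not overlap for dimm.

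**Figure D4:**
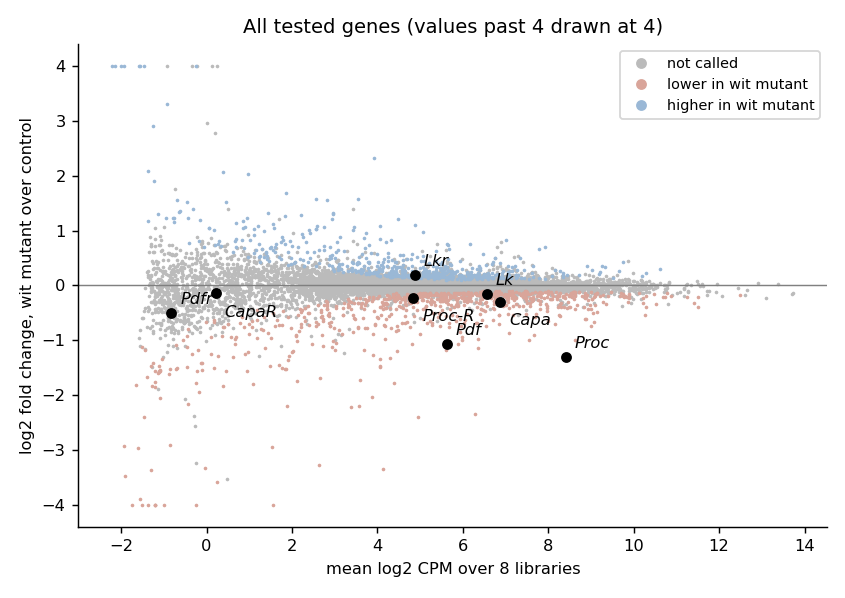
Log2 fold change, wit mutant over control, against mean log2 CPM for the 9176 tested genes (points past 4 in size are drawn at 4), with the 8 genes as black points. Proc and Pdf, at -1.31 and -1.07, lie below most genes of like abundance, and Pdfr and CapaR lie where the cloud of genes not called is widest.

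The profiles most like each peptide gene were found among 8531 genes by the root mean square difference of log2 CPM values centred on each gene's mean, over 8 libraries. For Proc these were CCAP (0.09) and CG6044 (0.11), and for Pdf they were CG13506 (0.10) and CG1607 (0.13). CG1607, an amino acid transporter gene, was at 133 ± 15.9 CPM in mutants and 264 ± 13.3 CPM in controls (SD, n = 4 each). For Capa they were Ada1-2 (0.04) and del (0.04), and for Lk they were CG32278 (0.05) and CG11837 (0.06). CCAP had 16.2, 14.1, 14.6 and 12.9 CPM in mutant replicates 1 to 4, against 33.6, 33.9, 33.7 and 31.3 CPM in control replicates 1 to 4. Mutant replicates 1 and 3 were the higher, as for Proc. Since CCAP was picked for its likeness to Proc over these same libraries, the shared order is no separate result.

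Markers of glia, which are part of the nerve cord, and of other tissues were called in part, where 14.8% of all tested genes were called. Of 6 glial markers 3 fell, the glutamine synthetase gene Gs2, wrapper and Eaat1. Only wrapper was called without control replicate 2, control replicate 3 or mutant replicate 2 and with the replicate block, Gs2 also lost its call without control replicate 1, control replicate 4 or mutant replicate 3, and Eaat1 without mutant replicate 4. The summed abundance of the glial list was 779 to 1089 CPM in mutant libraries against 1267 to 1300 CPM in control libraries. Of 5 fat body markers 1 fell, apolpp, while the 4 not called had positive log2 fold changes, from 0.17 to 1.20. The summed fat body list, most of which was apolpp, was at 580 to 618 CPM in mutant libraries and 673 to 822.5 CPM in control libraries. Of 4 tested tracheal markers 1 rose, Gasp, its call lost without any 1 of replicates 2, 3 and 4 of either genotype (edgeR adjusted p from 0.0722 to 0.118). The tracheal log2 fold changes ran from 0.14 to 0.59. The summed tracheal list was at 144 to 188 CPM in mutant libraries and 138 to 164 CPM in control libraries. The hemocyte, muscle and ring gland lists had 2, 3 and 1 genes tested and 0 called by edgeR, DESeq2 or limma-voom (0 at an unadjusted p under 0.05 in edgeR), at summed levels of 46.7 to 65.0 CPM in mutant and 55.0 to 65.2 CPM in control libraries for hemocytes, 2.58 to 11.6 CPM in mutant and 2.86 to 7.19 CPM in control libraries for muscle, and 0.408 to 3.91 CPM in mutant and 0.355 to 0.533 CPM in control libraries for ring gland. Their part in the results above was not tested.

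**Figure D5:**
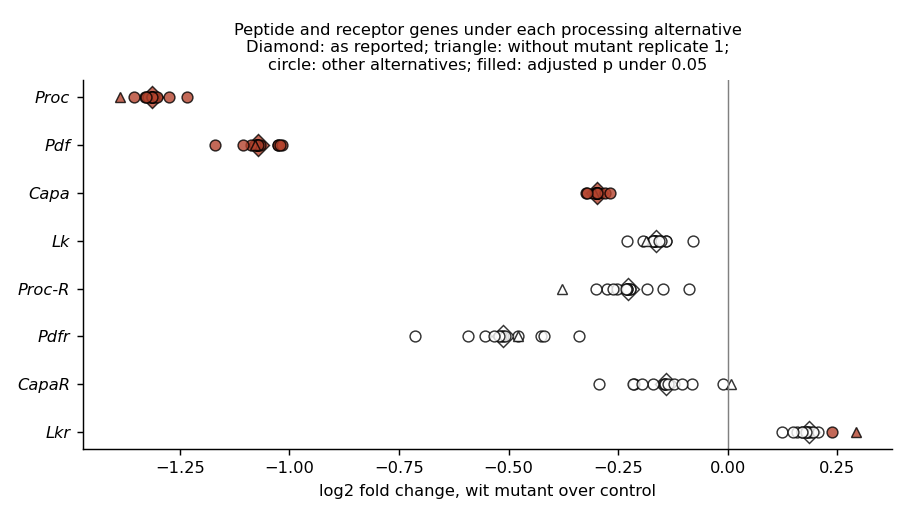
Log2 fold changes, wit mutant over control, of the 8 genes as reported (diamond), without mutant replicate 1 (triangle) and under the other 13 alternatives (circles); filled symbols have an adjusted p under 0.05. Proc, Pdf and Capa are filled throughout, Lkr is filled without mutant replicate 1 and with limma-voom, and Lk, Proc-R, Pdfr and CapaR are open throughout.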

How the data were processed

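Nerve cord RNA of 4 wit mutant and 4 control pools was made into stranded mRNA libraries and sequenced in 42 bp paired reads, per the labels' protocols. The authors deposited estimated counts per gene, not normalized. The submitters' processing notes name kallisto 0.43.0, DESeq2 and genome build BDGP6, without roles, and the sources used here do not say how transcripts were summed to genes. Estimated counts were rounded to whole numbers. Symbols came from a table of gene identifiers, and coordinates and transcript lengths from Ensembl release 115 for the same assembly. Of 121 list entries 115 matched, and the others (ap, Phm, Pal1, btl, wupA, phm) were not analysed here.

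Low-count genes were removed with filterByExpr (minimum count 10) in edgeR 4.0.16. After TMM scaling, the 2 genotypes were compared by the robust quasi-likelihood test of edgeR without covariates, two-sided, with Benjamini-Hochberg adjustment over all 9176 genes. CPM are on TMM-scaled totals, and 3 counts corresponded to 0.0926 to 0.142 CPM. The standard error came from the quasi-likelihood F statistic. Ratios of peptide genes used a pseudocount of 0.5 and an exact permutation test over 70 splits, added after the values were seen. R 4.3.3, limma 3.58.1 and DESeq2 1.42.0 were also used, and the test was tested on simulated data.

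The 8 genes and the lists were chosen with earlier results of these data known. Named by rule were the 8 genes, up to 5 called genes of each list (smallest adjusted p first), and for each peptide gene the 2 genes of 1 CPM or more with the closest profile. Genes named outside that rule (Burs, Dh44, dimm, PK2-R1, IA-2, amon, tim, cry and the region genes) were chosen after their values were seen. Within a genotype, any 2 libraries differed by more than sampling noise (chi-square per degree of freedom 3.69 to 34.3), so none was counted as a duplicate. No promoter or protein sequence was used here. Alternatives were a replicate block, no count filter, a minimum count of 30, size factors or the Wald test of DESeq2, limma-voom with quality weights, and leaving out each library.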

Additional observations from a re-analysis of the deposited data

Results flagged for a closer look

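Among the values of 26 genes in each genotype, 2 groups of 4 libraries held a library far from the other 3, a gap that chance gives in about 1 of 20 groups. Galphao was at 1086 CPM in mutant replicate 4, against 1193 to 1206 CPM in the other mutants. CCAP was at 31.3 CPM in control replicate 4, against 33.6 to 33.9 CPM in the other controls. None of the 8 peptide and receptor genes had such a library.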

How the results depend on the processing

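The calls of Proc, Pdf and Capa held in all 14 alternatives, with log2 fold changes from -1.39 to -1.23, -1.17 to -1.02 and -0.32 to -0.27, and the number of the 8 genes called lower was 3 in each. Lk (-0.23 to -0.08), Proc-R (-0.38 to -0.09), Pdfr (-0.71 to -0.34; not tested at a minimum count of 30) and CapaR (-0.29 to 0.01) were not called in any of the alternatives that tested them. Lkr was called, as the only gene called higher (1 in place of 0), with limma-voom (0.24, adjusted p = 0.0456) and without mutant replicate 1 (0.29), and ran from 0.12 to 0.29 when 1 library was left out. The cause was not tested. Over all genes, 2134 were called with limma-voom (1001 higher) and 854 with the replicate block (301 higher), against 1357 (562 higher, 795 lower). Leaving out 1 library gave 828 to 2184 calls, with 304 to 1060 higher and 524 to 1124 lower, the extremes being control replicate 2 and mutant replicate 1. Differences between peptide gene ratios kept their sign without any 1 library, from -1.09 to -0.97 for Proc to Capa and from -0.85 to -0.73 for Pdf to Capa. Same-numbered mutant and control libraries correlated at -0.31 to 0.04 in their deviations from the genotype means. The labels do not say that these libraries share a day or batch. The correlations cannot decide this, since variation within 1 genotype also enters them. With the replicate block, the 3 calls of Proc, Pdf and Capa held and those of Pka-R2, brp, Gs2, Burs, Chi, Eaat1, Syt1, Gasp and so were lost (adjusted p from 0.0514 to 0.0930). Ada1-2 lost its call without control replicate 2 or 3 and del without control replicate 3. Low counts limit Pdfr and CapaR.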
